A study of Homo sapiens with 2 samples.

Results

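RNA polymerase II, the Mediator complex and TFIID are the core of the machinery that starts transcription of protein-coding genes. The exons of these subunits that were listed as skipped in HEK293T cells, an established human embryonic kidney line, are described here. The members were all skipped-exon events whose gene symbol begins with POLR2 and a letter from A to M, with MED and a number, or with TAF and a number, leaving out TAF15. They came to 614 of 113456 skipped-exon events. These events covered 357 of 67154 distinct exons and 62 of 11965 gene symbols.

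The study sequenced polyA+ RNA from 1 untreated control culture and from 1 culture given amiloride at 300 µg/mL for 6 h, and asked which exons changed their splicing. Amiloride is a diuretic drug that blocks sodium channels and exchangers. Both libraries came from HEK293T cells and neither had a replicate. The splicing tables number the libraries 1 and 2 and name no condition for them, so reads and inclusion levels per library were not used, and no difference between control and amiloride was tested or is given for any exon. How deeply each was sequenced is not stated in the sources used here.

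Pol II synthesises messenger RNA, Mediator carries signals from DNA-bound activators to it, and TFIID recognises the promoter and helps to place the polymerase at the start site. Mediator is built of a head, a middle, a tail and a separable kinase module around the long scaffold subunit MED14. TFIID holds TBP and the TBP-associated factors, the TAFs, several of which pair through histone folds. An mRNA that lacks a coding exon carries either an in-frame deletion, where the exon length is a multiple of 3, or a shifted reading frame.

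The symbols did not all name subunits of the 3 complexes. Of the 62, 52 were subunits (or close paralogs of subunits) of Pol II, Mediator or TFIID and held 309 exons. The other 10 symbols held 48 exons. They were TAF1A, TAF1B, TAF1C and TAF1D of SL1, the promoter factor of RNA polymerase I; TAF5L and TAF6L of the SAGA coactivator; the POLR2J copies POLR2J2, POLR2J3 and POLR2J4; and TAF1A-AS1, an antisense RNA. TAF1A-AS1 lies opposite TAF1A and held 1 exon of 150 bases. It was named after its values were seen. POLR2M, which also fits the symbol rule and is not a core subunit, had no skipped-exon event.

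A skipped-exon event names 1 exon and the 2 exons that flank it when it is left out. The junction that joins those flanking exons is the skipping junction, and an exon can appear in several events with different flanks. Being listed does not show how often an exon was left out, because reads and inclusion levels were not used. Coordinates are those of GRCh37, and exons were numbered along the canonical transcript in GENCODE release 44 mapped to that build. The annotation behind the deposited tables is not given in the sources used here.

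The sequences of a few exons show what the events rest on. Exons are bounded by a 3′ splice site (3′ss) ending in AG and a 5′ splice site (5′ss) that nearly always begins with GT. The shortest member exon is given whole, with the exon in capitals and 2 intron bases on each side in lower case. It is protein coding and is not in the canonical transcript.
MED23 exon of 18 bases, chr6:131936464-131936481, minus strand: agACCTTGAACATTGCTCAGgt
Its length is a multiple of 3, so leaving it out alone keeps the frame.

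Of the 357 exons, 4 had GC in place of GT at the 5′ss. A GC donor is a rare, naturally used variant. Those 4 sites are shown with 3 exon bases followed by 6 intron bases, the GC in capitals. The set was put together after its members were seen.
POLR2A exon 8, chr17:7401397-7401529, plus strand: aagGCacgt
MED12 exon 39, chrX:70357037-70357233, plus strand: cagGCaaag
TAF4 exon 12, chr20:60574039-60574164, minus strand: aagGCgagt
TAF1C exon 6, chr16:84216682-84216755, minus strand: gggGCaagt
All 4 had the usual AG at the 3′ss. The share was 1.12% of member exons (95% Wilson interval 0.437 to 2.85), beside 0.949% of the 66797 other exons (0.878 to 1.03). The intervals overlap. All such intervals cover counting error only and take exons as independent, although exons of one gene share their source.

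Most of the counted symbols of the 3 complexes had at least 1 listed exon. Only subunits and paralogs whose symbols fit the rule were counted, so TBP and any subunit named otherwise were left out. Pol II had 11 of its 12 subunits listed, with 51 exons and 99 events. Mediator had 27 of 30 listed, with 171 exons and 289 events, and TFIID had 14 of 17 TAF symbols, with 87 exons and 140 events. Both counts take in paralogs, such as MED12L, TAF1L, TAF4B and TAF7L. The 7 counted symbols without an event were POLR2L, MED7, MED9, MED26, TAF1L, TAF7 and TAF9. The canonical transcripts of TAF1L and TAF7 have 1 exon and those of POLR2L, MED7 and MED9 have 2, so none of these 5 transcripts has an internal exon. Other transcripts of these genes were not examined for internal exons. MED26 has 1 internal exon in its canonical transcript, which was not listed. TAF9 also has 1, of 93 bases at chr5:68662330-68662422, and it was listed with 4 events under AK6, a gene that shares this locus.

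Counted over canonical transcripts of genes with a skipped-exon event, 334 of 642 internal exons of the member genes were listed, 52.0% (48.2 to 55.9). The same share was 48.6% (48.3 to 48.9) over 10873 other genes with an event. Genes with no event, such as MED26, entered neither share. The share was 55.2% for Pol II, 48.8% for Mediator and 55.4% for TFIID, with overlapping intervals. The genes themselves ranged widely. All internal exons were listed in 19 of 60 member genes, or 31.7%, against 15.8% of other genes. No test was made of this difference, and genes with few internal exons reach a full count with fewer listed exons.

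In Pol II, the largest subunit POLR2A, which holds the catalytic centre and the repeated C-terminal tail, had 10 of its 28 internal exons listed. They carried 12 events, and none of the 11 skipping junctions was annotated. In other genes 19.1% (18.9 to 19.4) of skipping junctions were annotated, the share to set beside each such count below. Exons 3, 6, 7, 8 and 12 and exons 22 to 26 of POLR2A were listed, so the exons from 13 to 21 had no event. Exon 7, of 221 bases at chr17:7400969-7401189, was the longest listed Pol II exon. POLR2B, the second largest subunit, had the most listed exons and events of the complex, with 17 exons and 24 events, and 16 of its 23 internal exons were among them. Its exon 3, of 151 bases at chr4:57856914-57857064, had the lowest 3′ss score in Pol II (4.42, on a scale explained below).
POLR2B exon 3, 3′ss with AG in capitals: gaactcaaatattttcccAGttc

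The small subunit POLR2H, which RNA polymerases I, II and III share, had 3 listed exons but 23 events. Exon 3 (84 bases, chr3:184082754-184082837) and exon 4 (94 bases, chr3:184082921-184083014) each took part in 8 events, the most of any Pol II exon. Exon 5 (84 bases) took part in 7. The 23 events used 13 distinct skipping junctions, and 7 of them joined canonical exons. The junction from exon 4 to exon 6 was annotated and the other 12 were not. The remaining 6 junctions started or ended at other forms of the flanking exons.

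POLR2E, also common to the 3 polymerases, had 4 listed exons and 16 events. Its exons 2, 3, 4 and 7 were each in an event whose flanks had as many as 6 annotated exons between them, the widest in Pol II. Exon 7 (80 bases, chr19:1089471-1089550) was only partly coding. POLR2G, a subunit of the polymerase stalk, held the shortest listed Pol II exon, exon 4 of 51 bases at chr11:62532654-62532704. All internal exons were listed in POLR2D, the partner of POLR2G in the stalk, and in POLR2F and POLR2K, which the 3 polymerases share.

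In Mediator the share of exons in more than 1 event was counted by module. In the head module, 17 of 30 exons were in more than 1 event, or 56.7% (39.2 to 72.6). In the middle module this held for 17 of 24, or 70.8% (50.8 to 85.1), and in the 4 subunits placed between head and tail for 9 of 11, or 81.8% (52.3 to 94.9). In the kinase module, counting MED12, MED13 and their paralogs MED12L and MED13L, it held for 10 of 54, or 18.5% (10.4 to 30.8). In the tail module it held for 19 of 45, or 42.2% (28.97 to 56.7), and the scaffold MED14 had 7 listed exons with 1 event each. Over all other exons of the series the share was 40.0% (39.7 to 40.4), inside the intervals of the head and the tail. The kinase interval lies below the intervals of the head, middle and head-to-tail groups and overlaps those of the tail and the scaffold. Each group is a handful of genes, so a single gene can set its share, and no test was made. In the kinase module all listed exons of MED12 (10) and MED12L (15) were in 1 event each. Exons of MED13 and MED13L were in as many as 2 and 3 events. In the middle module MED1 held 14 of the 24 exons.

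How far an event reached was counted in the same way, again with no test. An event leaving out more than 1 annotated exon was found for 16 of 54 kinase exons, or 29.6% (19.1 to 42.8), and for 19 of 24 middle exons, or 79.2% (59.5 to 90.8). The share was 81.8% (52.3 to 94.9) for the 11 head-to-tail exons, 21 of 30 (52.1% to 83.3%) for the head exons and 64.4% (49.8 to 76.8) for the 45 tail exons. It was 1 of 7, or 14.3% (2.57 to 51.3), for the scaffold. Over all other exons of the series the share was 61.6% (61.2 to 62.0). That value lies inside the intervals of the middle, head-to-tail, head and tail groups. It lies above those of the kinase module and the scaffold. The middle module is mostly MED1, which contacts nuclear receptors. MED1 had 14 of its 15 internal exons listed and 44 events, the most of any Mediator gene. Exon 10 (90 bases, chr17:37583954-37584043) took part in 7 events, the most of any Mediator exon. The 44 events used 31 skipping junctions between canonical exons. Of these, 13 left out 1 exon and 18 left out more, and only the junction from exon 4 to exon 6 was annotated. Exon 4 itself was the one internal exon not listed.

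The widest MED1 junction joined exon 1 to exon 17, the last exon, and passed over all 15 internal exons of the canonical transcript. Its event named exon 3 (79 bases, chr17:37599803-37599881) as the skipped exon. Counting exons of other transcripts, 16 non-overlapping annotated exons lay between the flanks, the most of any Mediator event. Exon 6 of MED1 was among the shortest member exons, with 29 bases, and had 4 events.

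**Figure D1:**
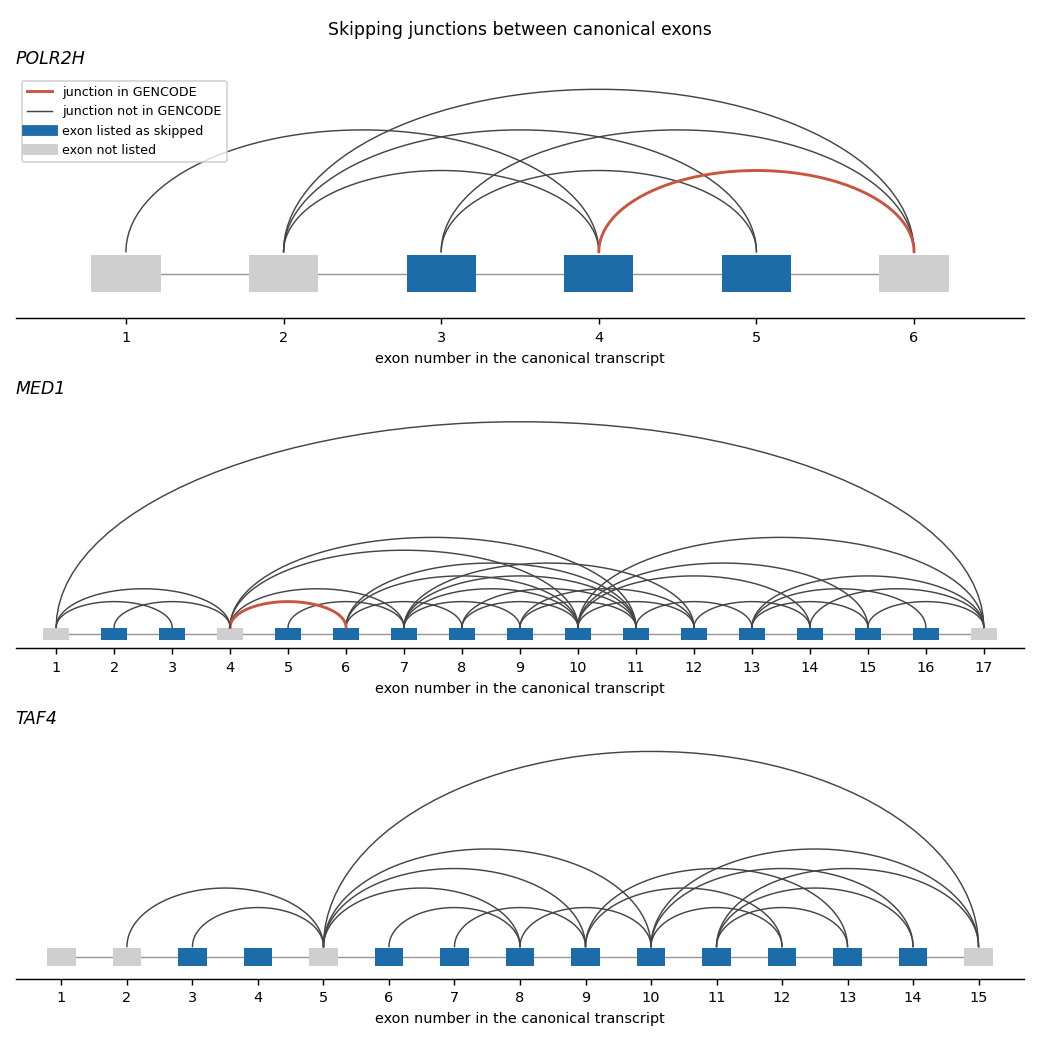
Boxes are the exons of the canonical transcripts of POLR2H, MED1 and TAF4, in order and not to length (blue where listed as skipped), and each arc is a skipping junction between canonical exons, heavier and red where annotated. MED1 shows 31 arcs of which 1 is annotated, POLR2H 7 with 1 annotated, and TAF4 17 with none annotated.

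MED17, a core subunit of the head, had all 10 of its internal exons listed, in 30 events. Of its 20 skipping junctions 7 were annotated, and each of the 7 left out either 1 or 2 exons. MED6, also in the head, had 7 listed exons of 28 to 160 bases, and none of the 7 was a multiple of 3 in length. Across the head only 5 of 30 exons were multiples of 3, or 16.7% (7.34 to 33.6), beside 39.2% (34.3 to 44.4) of all member exons. The head share was the lowest of the Mediator groups, and no test was made. It was 37.5% in the middle module, 37.8% in the tail, 45.5% between head and tail, 46.3% in the kinase module and 57.1% in the scaffold. MED6 and MED17 hold 17 of the 30 head exons, and overlapping forms of an exon were counted apart.

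MED6 exon 5 was listed in 2 forms that share a 5′ss and differ by 21 bases at the 3′ss. The longer form, of 130 bases at chr14:71059597-71059726, had the lowest 3′ss score in Mediator (-1.01). The sites are shown with 20 intron bases and 3 exon bases, the AG in capitals.
MED6 exon 5, form of 130 bases: cgacctaatgataaatttAGagt
MED6 exon 5, canonical form of 109 bases: gtttattttccttttacaAGctt
The long form was in 2 events and the canonical form in 3. The same pair was also listed as an alternative 3′ss event.

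In the kinase module MED13 had the most listed exons of any Mediator gene, 18, with 25 events. None of its 22 skipping junctions was annotated. Exon 16 of MED13, of 917 bases at chr17:60059559-60060475, was the longest Mediator exon, and exon 9 had 684 bases. MED12, which activates the kinase, had 10 of its 43 internal exons listed, each in 1 event. Here 5 of 10 skipping junctions were annotated. They passed over exons 14, 17, 29, 34 and 39, and the last of these is the exon with the GC donor shown above. Its 5′ss score of -10.85 was the lowest in Mediator.

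MED23, a tail subunit that activators bind, had 8 listed exons, 7 of them among its 27 canonical internal exons. Its eighth exon was the one of 18 bases shown above. That exon was in 2 events, one of which had an annotated skipping junction, and its 5′ss was close to the usual form (score 10.24). Its 3′ss scored 4.04, below the lower quartile of member exons (7.14). MED15, another tail subunit, had 13 listed exons with 24 events. One of them, of 86 bases at chr22:20936949-20937034, was the single member exon whose 2 ends were not together in any annotated exon. It starts 51 bases inside exon 10, at a 3′ss that was also listed as alternative.

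In TFIID, the largest subunit TAF1, which spans the complex and carries bromodomains, had the most listed exons, 16, with 18 events. The list held 13 of its 36 canonical internal exons and 3 other exons. One of these was a form of exon 30 that is 25 bases longer at the 5′ss, with 148 bases against 123. TAF4B, a paralog of TAF4, had the most events, 21, and all 13 of its internal exons were listed.

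TAF4, a histone-fold subunit at the core of TFIID, had 11 of its 13 internal exons listed and 19 events. None of its 17 skipping junctions was annotated. The widest joined exon 5 to exon 15 and passed over 9 canonical exons. It named exon 10 (170 bases, chr20:60575608-60575777) as the skipped exon, and with exons of other transcripts 10 annotated exons lay between the flanks. Exon 12, with the GC donor shown above, was in 2 events and had the lowest 5′ss score in TFIID (-7.42).

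TAF6, which pairs with TAF9 through a histone fold, had 8 listed exons and 14 events. Of the 8, 7 were multiples of 3 and keep the frame when left out alone. Exon 4 of TAF6 (154 bases, chr7:99711239-99711392) was the exception. It was in 4 events, the most of the gene, and between the widest flanks lay 10 annotated exons. MED6, described above, had 0 of 7 such exons. This pair was singled out after its values were seen, and other genes had all or none of their fewer listed exons in frame, such as MED30 with 2 of 2 and TAF1B with 0 of 5.

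TAF3, which reads a histone mark at promoters, held the longest member exon of all, exon 3 of 1823 bases at chr10:8005883-8007705. It was in 1 event. TAF7L, a paralog of TAF7 with a known role in germ cells, had the lowest 3′ss score of TFIID and of all members (-1.35), at exon 2 (68 bases, chrX:100542466-100542533). Its site lacks a run of pyrimidines before the AG.
TAF7L exon 2, 3′ss with AG in capitals: ttcatgaactcaaaatcaAGaca
TAF2, a subunit that contacts promoter DNA, held exon 5 of 142 bases, which was in 4 events. TAF5, TAF6 and TAF8 each had an exon in 4 events too. The histone-fold partners TAF11 and TAF13 had all of their internal exons listed, with 3 and 2 exons.

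The symbols from other complexes were a minor share. SL1 had 27 exons and 54 events, of which TAF1C alone held 11 exons and 30 events. In SL1, 11 of 39 skipping junctions were annotated, or 28.2% (16.5 to 43.8). TAF1A had 8 exons, TAF1B 5 and TAF1D 3. TAF6L, the SAGA relative of TAF6, had 5 exons and 12 events, and TAF5L had 1 exon. None of the 10 SAGA junctions was annotated (0 to 27.8%), an interval that holds the 19.1% of other genes.

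POLR2J and its copies POLR2J2, POLR2J3 and POLR2J4 held 15 listed exons, and their values must be read together. In 11 of the 15, both splice site sequences were shared letter for letter with an exon of another copy. There were 4 such pairs of sites. One was common to POLR2J exon 2, POLR2J2 exon 2 and POLR2J4 exon 2, each of 90 bases.
POLR2J, POLR2J2 and POLR2J4, shared 3′ss: tggcctctgtgtcttcctAGgat
POLR2J, POLR2J2 and POLR2J4, shared 5′ss: atcGTaagt
Where reads match several copies equally well, the copy that an event belongs to is uncertain. POLR2J2 also held the single member event with no annotated internal exon between its flanks.

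Taken over all members, the exons were close to other listed exons in most measures. Of the 357, 209 were in 1 event, 124 in 2 or 3 and 24 in 4 or more. An exon was in more than 1 event in 41.5% of members (36.5 to 46.6) and 40.0% of other exons (39.7 to 40.4). The length was a multiple of 3 in 39.2% of members and 38.8% of other exons (38.4 to 39.2). Of all members, 201 were wholly coding with a length that is not a multiple of 3, or 56.3% (51.1 to 61.4), beside 54.2% (53.8 to 54.5) elsewhere. For these, leaving out the exon alone shifts the reading frame. In each of these measures the other exons lay inside the members' interval.

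Member exons were more often wholly coding. This held for 334 of 357, or 93.6% (90.5 to 95.7), against 89.5% (89.3 to 89.7) of other exons. The intervals do not overlap, but no test was made, and exons of a gene are not independent. The symbol rule picks mostly protein-coding genes, whereas the other exons come from all remaining symbols, so the sets were not matched in this respect. Among the members, noncoding exons numbered 10, and 12 were partly coding. With the 52 subunits alone, the coding share was 96.8%. That count leaves out POLR2J4 and TAF1A-AS1, whose listed exons were all noncoding.

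Member exons had a median length of 125 bases (interval of the median 118 to 131, quartiles 90 and 161), and other exons of 114 (114 to 115, quartiles 83 and 154). By module the median was longest for the kinase exons, at 149.5 bases (122 to 162), and shortest for the middle module among the larger groups, at 96.5 (78 to 115). Microexons, of at most 27 bases, numbered 2 of 357, or 0.560% (0.154 to 2.02), beside 0.783% of other exons. Exons over 300 bases numbered 7, or 1.96% (0.953 to 3.99), beside 3.19%.

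An event often passed over more than the exon it names. Of the 614 events, 250 had 1 annotated internal exon between the flanks, or 40.7% (36.9 to 44.6). There were 147 events with 2, or 23.9%, 93 with 3, or 15.1%, and 123 with 4 or more, or 20.03% (17.1 to 23.4). Among other events 38.7% had 1 and 22.1% had 4 or more. By exon, 58.3% of members (53.1 to 63.3) and 61.6% of other exons (61.2 to 62.0) were in an event that left out more than 1 annotated exon. In such an event the skipped form lacks all of these exons, and the inclusion form adds back only the named exon. The count takes annotated exons from all transcripts of the gene, so they need not occur together in any transcript.

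**Figure D2:**
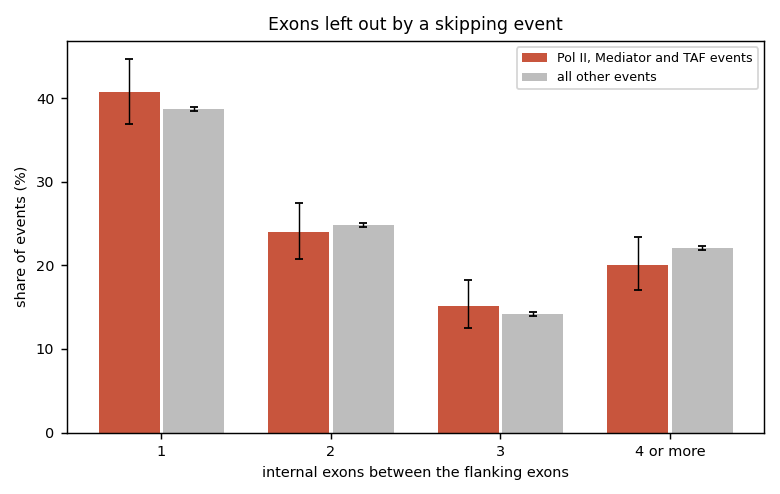
Bars give the share of skipped-exon events, in percent, by the number of annotated internal exons between the flanking exons, for member events (red, 614) and for all other events (grey, 112842), with 95% Wilson intervals for counting error. With 1 exon the bars stand at 40.7% and 38.7%, and with 4 or more at 20.03% and 22.1%.

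Most skipping junctions were not in the annotation, and how many reads supported each was not examined. The paper cautions that aligners often report false junctions, and it kept only annotated splice sites when computing splice site usage. The member events used 487 distinct skipping junctions, and 91 of them joined the flanking exons directly in some annotated transcript, or 18.7% (15.5 to 22.4). Elsewhere this held for 19.1% (18.9 to 19.4) of 88420. The share was 10 of 75 in Pol II, or 13.3% (7.41 to 22.8), 41 of 230 in Mediator, or 17.8% (13.4 to 23.3), and 24 of 115 in TFIID, or 20.9% (14.4 to 29.2). In 21 of the 62 genes no skipping junction was annotated. By contrast, both junctions of the form that includes the exon were annotated in 354 of 614 events, or 57.7% (53.7 to 61.5), beside 57.0% (56.7 to 57.3) of other events. By exon, 94 of 357 had at least 1 annotated skipping junction, or 26.3% (22.03 to 31.1), beside 25.9% (25.6 to 26.3).

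Splice sites were scored by how closely they follow annotated human sites. For each base the score adds the log2 of its frequency at that position of annotated GT or AG sites over an equal frequency of the 4 bases, so a higher score is a more typical site. The 5′ss score covers 3 exon and 6 intron bases and the 3′ss score 20 intron and 3 exon bases. GC donors score very low by construction, since sites with GC were not among those counted. The median 5′ss score of member exons was 8.09 (7.72 to 8.31) and that of other exons 8.07 (8.06 to 8.09). The median 3′ss score was 9.34 (8.70 to 9.78) and 9.21 (9.18 to 9.24). Members were thus typical of listed exons in both sites. By complex the median 3′ss score was 9.69 in Pol II, 9.06 in Mediator and 10.48 in TFIID (8.66 to 11.16), and the intervals overlap.

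**Figure D3:**
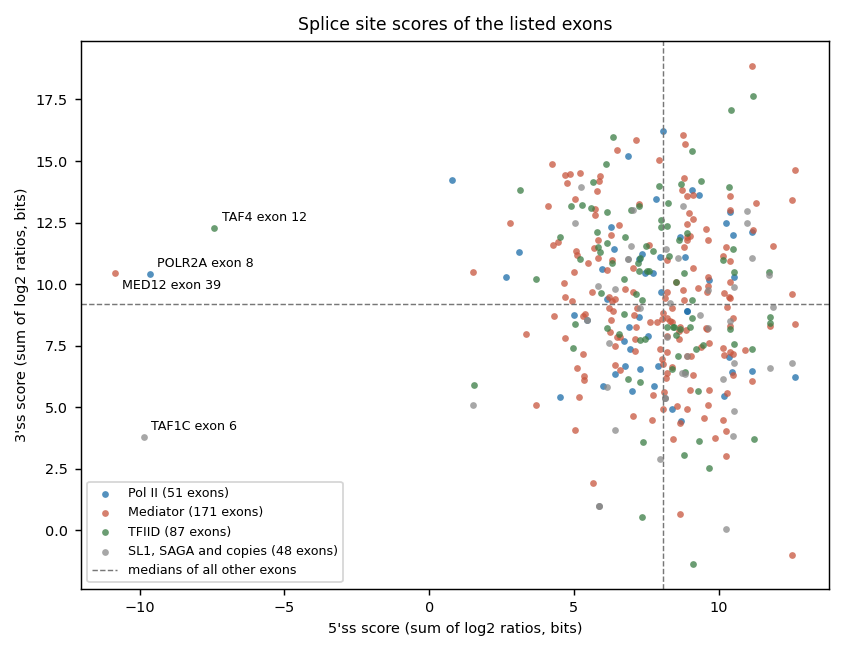
Each point is a member exon, placed by its 5′ss score and its 3′ss score (sums of log2 ratios, in bits) and coloured by complex, with dashed lines at the medians of all other exons (8.07 and 9.21). The 4 named exons at the left have GC donors, and the rest are spread around the medians. Their 5′ss scores reach down to 0.78 (POLR2K exon 3). Their 3′ss scores run from -1.35 (TAF7L exon 2) to 18.87 (MED13L exon 3).

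Other kinds of event in the same genes were fewer. There were 19 alternative 3′ss events of 2868, in 10 genes, and 18 alternative 5′ss events of 2620, also in 10 genes. They came to 14 and 11 distinct pairs of sites, which lay 2 to 471 bases apart at the 3′ss (median 56) and 9 to 449 apart at the 5′ss (median 59). POLR2M, with no skipped exon, had 1 of them, the pair 471 bases apart. In POLR2H a pair of 5′ss at the end of exon 2, 9 bases apart, was in 4 events. The pair is shown because it supplies some of the other flank forms in the gene with the most events per exon. It and the next pair were chosen after their values were seen.
POLR2H, longer form, chr3:184081362: aagGTatgt
POLR2H, shorter form, chr3:184081353: gagGTaagt
The closest pair was in MED21, a middle subunit, where 2 AG dinucleotides lie 2 bases apart.
MED21, longer form, chr12:27180280: ctagcagtatctttctctAGagt
MED21, shorter form, chr12:27180282: agcagtatctttctctagAGtat

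Events with mutually exclusive exons numbered 221 of 39869, in 45 genes, with 26 in MED1, 18 in TAF1C and 16 in MED27. In 219 of the 221 both exons were also listed as skipped exons, so these events are nearly all drawn from the exons already described. Retained introns numbered 5 of 677 and lay in 4 genes. TAF1C had 2, of 128 and 78 bases, and MED8, MED23 and MED22 had 1 each, of 493, 771 and 2435 bases, beside a median of 283 bases over all 677.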

How the data were processed

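PolyA+ RNA of HEK293T cells was sequenced in 2 libraries, 1 control and 1 treated with amiloride. The submitters' processing notes name STAR 2.5.1 and hg19 (GRCh37), and the authors deposited 5 event tables made with rMATS, whose version is not given in the sources used here. These hold exon coordinates and, for each form of an event, an effective length, which was 125 for the skipping form and longer by the exon length for the inclusion form in all 614 member events. The 30 columns of reads and inclusion levels name no library and were not used. The tables also hold 15 columns of the authors' own comparison (p-values, false discovery rates and inclusion differences). These were not used either. With 1 library per condition no test was made, and library depth, which sets the precision, is not given in the sources used here.

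Exons were collapsed by coordinates and strand and matched to GENCODE release 44 lifted to GRCh37 with Python 3.11.15 and pandas 2.3.3. rMATS takes events from its annotation and from reads, and which applied to an event is not in the columns used. Splice sites were read from GRCh37, where 98.9% of member exons were flanked by AG and GT. Site scores used 300873 annotated 5′ss and 300290 annotated 3′ss with a pseudocount of 0.5. Shares carry 95% Wilson intervals. The structure counts were checked on a small made-up annotation with known answers. Members, subunit lists and measures were chosen with earlier results of these data known. The genes and exons named were those of each complex with the most exons, the most events, the shortest and longest exon, the lowest site scores and the widest event, every exon of at most 27 bases, subunits with no exon, symbols outside the complexes, and POLR2A, MED12, MED13, MED14, TAF1, TAF4 and TAF6. An item that this rule would name is not reported here. Items outside this rule, such as MED17 and the unannotated MED15 exon, were given to complete a group or chosen with their values known.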

Additional observations from a re-analysis of the deposited data

How the results depend on the processing

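No paired analysis was possible because there is a single library per condition, with no replicate numbers and no test. Of 26 alternatives over 8 measures, 23 stayed within the counting interval of the value given. The alternatives were the subunits alone, exons with AG and GT alone, each event counted in place of each exon, and basic GENCODE transcripts alone. The 3 that moved further were the share of wholly coding exons, 96.8% with the subunits alone, and the share with an annotated skipping junction, 17.1% with each event counted and 13.4% with basic transcripts alone. Other exons gave 17.96% and 13.9% for the last 2. An exon in several events needs only 1 annotated junction to count, and basic transcripts hold fewer junctions.

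Depth and expression were not compared with which exons were listed. Exons of one gene, and events that share a junction, are not independent. The annotation behind the tables is not stated in the sources used here.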
